A study of Mus musculus with 9 samples.

Results

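The genes described are the 5 thrombospondins of the mouse (Thbs1, Thbs2, Thbs3, Thbs4 and Comp, which is also called thrombospondin 5) and 3 of their cell surface receptors (Cd47, Cd36 and Lrp1). They were found by symbol, and all 8 were present among the 50600 genes of the deposited tables. mRNA was sequenced in 9 libraries of mouse intestinal epithelium, 3 in each of 3 groups. Small intestinal organoids of WT genotype, from mice labelled C57BL/6, were grown for 24 hr in medium conditioned either by tumoroids (T-cM) or by WT organoids (WT-cM), mixed with an equal share of double-strength organoid medium. Tumoroids, which are organoids grown from intestinal tumours of Apc1638N/+ mice of mixed strain, were untreated and grown for the same time. Each group came from 3 mice, and the tumour-bearing mice were older than the organoid donors, per the methods of the study.

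Some features of the design limit what the groups can show. Apc1638N/+ mice carry a truncating mutation in 1 copy of Apc, the brake on Wnt signalling, and tumours arise after spontaneous loss of the remaining copy. According to the methods, tumoroids were kept without R-spondin, a Wnt agonist that the organoids received, so tumour genotype, donor age, strain and medium cannot be told apart in the comparisons with tumoroids. The strains are those of the labels, while the methods describe mixed backgrounds for all mice. The groups of organoids were named by the titles of their libraries. The treatment field of the same 6 libraries names the opposite medium, so every difference between the organoid groups given here changes sign under that label, and the names T-cM organoids and WT-cM organoids stand for the titles throughout.

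Thrombospondins are secreted, calcium-binding glycoproteins that assemble into trimers or pentamers and bind many partners at the cell surface and in the matrix. Thbs1 and Thbs2 form trimers and carry type 1 repeats, which bind the scavenger receptor Cd36, and Thbs1 can activate latent TGF-beta. Thbs3, Thbs4 and Comp form pentamers and lack these repeats. Cd47 binds the C-terminal part of thrombospondins and also presents a "don't eat me" signal to phagocytes, while Lrp1 is a large endocytic receptor that clears Thbs1, proteases and their inhibitors. In the intestine, Cd36 takes up long-chain fatty acids at the brush border of enterocytes, and thrombospondins are best known from stroma, vessels and platelets.

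Thbs1 (ENSMUSG00000040152.8) lies on chr2:118111876-118127133 of GRCm38, on the plus strand, with 22 exons in its longest annotated transcript. It shares 597 bases with Gm29233, a lincRNA on the opposite strand that had no reads in any library. Thbs2 (chr17:14665500-14694235, minus strand), Thbs3 (chr3:89215180-89226837, plus), Thbs4 (chr13:92751590-92794818, minus) and Comp (chr8:70373558-70382066, plus) are spread over 4 further chromosomes. The receptors are at chr16:49800533-49915010 on the plus strand for Cd47, chr5:17781690-17888801 on the minus strand for Cd36 and chr10:127538161-127621148 on the minus strand for Lrp1, whose longest transcript has 89 exons. Thbs3 lies wholly within the annotated span of Mtx1, a mitochondrial import gene on the opposite strand, and 318 of its 4823 exonic bases (6.59%) are shared with Mtx1 exons. The libraries kept strand, but whether the counting used it is not given in the sources used here, so reads of Thbs3 and Mtx1 in the shared bases cannot be told apart.

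RefSeq promoter sequences (GRCm38.p6) were at hand for 6 of the 8 genes, with no entry for Thbs1 and Comp. The 250 bases before the start were searched on both strands for GGAATG, the core letters bound by TEAD factors, and for CTTTGA, the core letters bound by TCF/LEF factors. GGAATG was held by 12.6% of all 32851 promoters and CTTTGA by 13.8%. CTTTGA occurred in Thbs3, the tested thrombospondin with an entry, beginning 197 bases before the start. GGAATG occurred in Thbs4, a gene without reads, as 2 overlapping copies on the reverse strand that began 197 and 192 bases before the start. Neither was found in Thbs2, Cd36, Lrp1 or the 2 entries for Cd47. The windows of Cd36 (chr5:17835897-17836146) and Cd47 (chr16:49855404-49855653 and chr16:49855411-49855660) lay inside the gene spans given above. The starts at the outer ends of these genes were therefore not searched. The windows of Thbs3 (chr3:89214930-89215179, plus strand) and Thbs4 (chr13:92794819-92795068, minus strand) are shown for these matches, in capitals, and that of Lrp1 (chr10:127621149-127621398, minus strand) as the promoter of a member that was lower in tumoroids and held neither.
Thbs3: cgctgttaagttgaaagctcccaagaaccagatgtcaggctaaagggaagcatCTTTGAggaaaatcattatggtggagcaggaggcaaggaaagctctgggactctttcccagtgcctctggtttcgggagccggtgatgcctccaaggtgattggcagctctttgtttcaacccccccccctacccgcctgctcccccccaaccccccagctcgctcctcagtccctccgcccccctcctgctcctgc
Thbs4: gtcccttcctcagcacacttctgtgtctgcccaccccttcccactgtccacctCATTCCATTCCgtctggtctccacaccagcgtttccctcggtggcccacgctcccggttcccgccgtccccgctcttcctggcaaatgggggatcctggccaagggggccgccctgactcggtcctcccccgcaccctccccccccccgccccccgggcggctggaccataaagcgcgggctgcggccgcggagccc
Lrp1: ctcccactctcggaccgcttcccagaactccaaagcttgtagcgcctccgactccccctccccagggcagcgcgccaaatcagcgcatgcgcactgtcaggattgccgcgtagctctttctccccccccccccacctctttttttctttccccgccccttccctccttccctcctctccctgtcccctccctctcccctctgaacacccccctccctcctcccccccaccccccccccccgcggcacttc

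Libraries held 16541635 to 25170966 counted reads, so that 3 reads, taken as the floor of detection, correspond to 0.103 to 0.204 CPM (counts relative to library size, normalised between libraries by the TMM method). The epithelial identity of the samples was checked with 7 markers (Epcam, Cdh1, Vil1, Krt8, Krt18, Krt19 and Cdx2). Their summed level was 9289 to 11577 CPM in T-cM organoids, 9396 to 10228 CPM in WT-cM organoids and 6495 to 7375 CPM in tumoroids. The markers went different ways. Krt18 was higher in each tumoroid library (1065 to 1584 CPM) than in any organoid library (410 to 723 CPM). Epcam, Vil1, Krt8 and Krt19 were lower in each, and Cdh1 and Cdx2 overlapped, with Cdx2 lowest in tumoroid 3 at 76.7 CPM. Markers of other cells that make thrombospondins were low. The 10 mesenchymal markers summed to 2.17 to 4.97 CPM in organoids and 4.24 to 50.5 CPM in tumoroids, with Col3a1 and Lum at 0 in all 9 libraries. The highest sum was that of tumoroid 3, through Acta2 at 46.0 CPM. The 6 endothelial markers summed to 1.09 to 1.65 CPM in organoids and 1.41 to 6.08 CPM in tumoroids, and Kdr was at 0 throughout. The 5 platelet markers summed to 5.91 to 11.8 CPM over all libraries, mainly from Gp1bb, with no read of Pf4 in organoids. The 6 leukocyte markers summed to 0.824 to 4.90 CPM in organoids and 7.48 to 26.7 CPM in tumoroids, with Cd3e at 0 in all 9 libraries.

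Among the thrombospondins, Thbs1 was the member with substantial expression, and its level in tumoroids was far above that in organoids. Organoids gave 72, 32 and 64 reads of Thbs1 in the T-cM libraries and 57, 46 and 78 in the WT-cM libraries, in order of replicate. Tumoroids gave 1629, 2053 and 12653. After normalisation these were 3.81, 2.17 and 3.61 CPM, then 3.13, 2.80 and 3.45 CPM, and in tumoroids 73.8, 76.3 and 435 CPM. Each tumoroid library thus lay above each organoid library, and tumoroid 3 stood apart from the other tumoroids. A separation of the libraries without overlap, in either direction, was found for 50.7% of all tested genes against WT-cM organoids and 53.9% against T-cM organoids.

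Thbs1 averaged 195 ± 208 CPM in tumoroids (SD, n = 3), 3.13 ± 0.329 CPM in WT-cM organoids and 3.20 ± 0.893 CPM in T-cM organoids. Set against WT-cM organoids, the difference was 5.96 on the log2 scale (SE 0.75, 95% interval 4.27 to 7.64), a 62.0-fold difference, with an adjusted p of 0.00022 (edgeR quasi-likelihood test, Benjamini-Hochberg over 16208 genes). Against T-cM organoids it was 5.92 (SE 0.75, adjusted p = 0.00023), or 60.5-fold. Both comparisons use the same 3 tumoroid libraries, so the second is no independent repeat of the first. A gene was called where the adjusted p was under 0.05 and the absolute log2 fold change above 1, which held for 29.8% of the tested genes against WT-cM organoids and 31.2% against T-cM organoids.

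The size of the difference rested on tumoroid 3, while its call did not. Relative to the organoid median of 3.29 CPM, Thbs1 was 22.4 times as high in tumoroid 1, 23.2 times in tumoroid 2 and 132 times in tumoroid 3. Without tumoroid 3 the log2 fold change was 4.57 against WT-cM organoids (23.7-fold, adjusted p = 5e-06) and 4.53 against T-cM organoids (23.0-fold, adjusted p = 5.4e-06). In tumoroids 1, 2 and 3, the endothelial markers summed to 3.17, 1.41 and 6.08 CPM and the leukocyte markers to 7.48, 26.7 and 25.2 CPM. Members of these lists went different ways in tumoroid 3, where Cdh5 (1.85 CPM), Tek (1.82 CPM), Cldn5 (0.0343 CPM) and Cd68 (20.5 CPM) were, like Acta2, the highest of the 9 libraries, Pecam1 (0.172 CPM) was the lowest, and Vwf, Csf1r and Ptprc (2.20, 4.50 and 0.206 CPM) were below the highest tumoroid. The part of these markers in its Thbs1 level was not tested. Of the other mesenchymal markers in tumoroid 3, Pdgfrb was at 1.79 CPM, Col1a1 at 0.412 CPM and Pdgfra at 0.240 CPM, each the highest of the tumoroids, Vim was at 1.99 CPM, Dcn at 0.0343 CPM, and Col1a2, Col3a1, Lum and Des were at 0. In tumoroids 1 and 2 the mesenchymal markers summed to 8.43 and 4.24 CPM, beside Thbs1 at 73.8 and 76.3 CPM. In bulk RNA, more cells that express a gene and more RNA per cell cannot be told apart.

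The other thrombospondins were at or near the floor. Thbs2 had no reads in the 6 organoid libraries and 4 reads in tumoroid 2, the single library with any. Thbs4, known from muscle, tendon and nerve, had no reads in any of the 9 libraries, and a count of 0 allows up to 3 reads, or 0.103 to 0.204 CPM in the libraries, by counting error. Comp, a cartilage and tendon protein, had 3, 9 and 6 reads in T-cM organoids, 9, 1 and 3 in WT-cM organoids and 9, 0 and 3 in tumoroids. The 3 groups overlapped for Comp, and its highest level was 0.611 CPM. These 3 genes stayed under a TPM (a level corrected for transcript length, with the same total in each library) of 1 in every library and were not tested with the other 5.

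Thbs3 was low throughout but was higher in each tumoroid library than in any organoid library. It had 2, 0 and 6 reads in T-cM organoids, 1, 3 and 13 in WT-cM organoids, and 27, 102 and 55 in tumoroids. Its levels in tumoroids were 1.22, 3.79 and 1.89 CPM, against at most 0.576 CPM in organoids. The log2 fold change was 3.01 against WT-cM organoids (SE 0.92, adjusted p = 0.025, edgeR) and 3.87 against T-cM organoids (SE 0.99, adjusted p = 0.011). Thbs3 entered the test only through tumoroids 2 and 3, in which its TPM passed 1, so a difference was built into its selection. The call against WT-cM organoids was lost without tumoroid 2 (2.44, adjusted p = 0.067), without WT-cM replicate 1 (2.54, adjusted p = 0.072) and without WT-cM replicate 2 (2.81, adjusted p = 0.091). The fold was 18.8 without WT-cM replicate 3, against 8.08 with all libraries, and 36.3 without T-cM replicate 3 and 9.74 without tumoroid 2, against 14.6. Mtx1, which shares bases with Thbs3, had 895 to 974 reads in tumoroids and 522 to 872 in organoids, and its part in the Thbs3 counts was not tested.

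**Figure D1:**
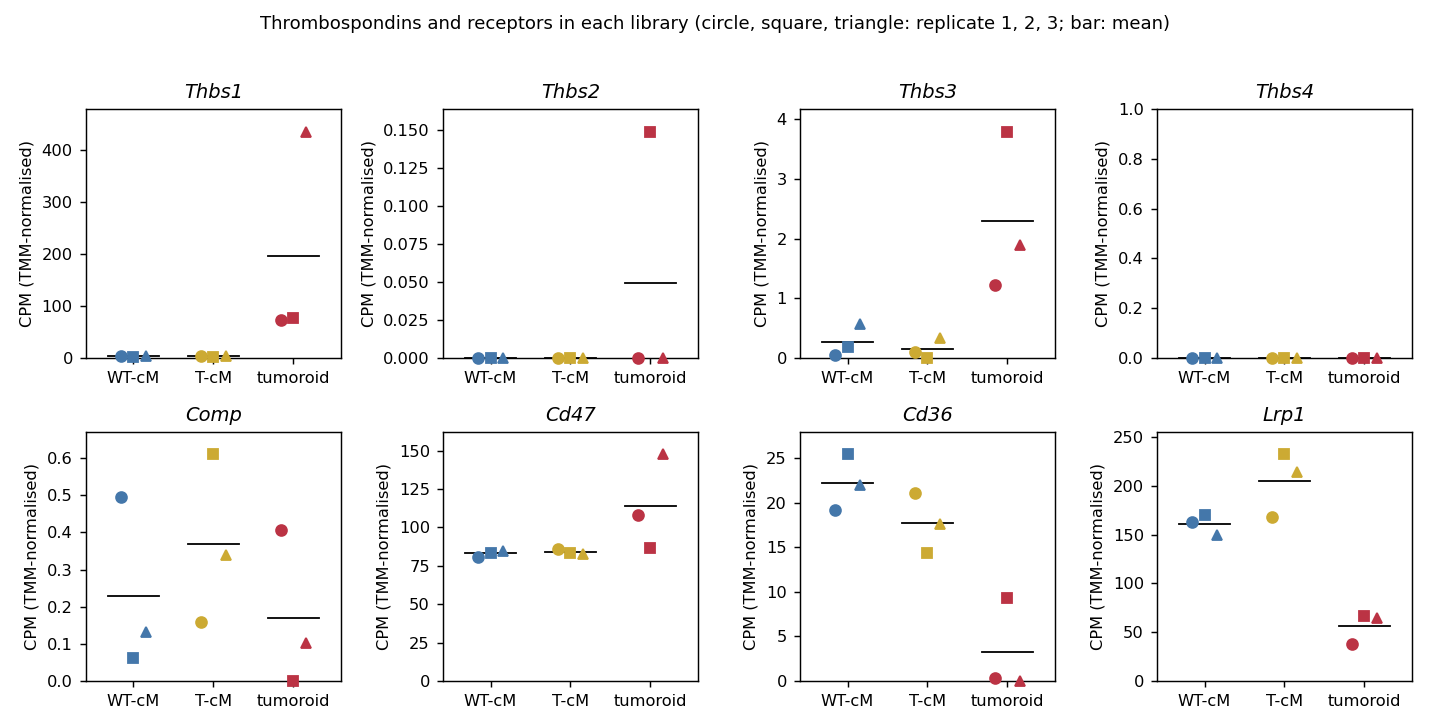
Level of each of the 8 genes in each library, in TMM-normalised CPM on linear axes that start at 0 and differ between panels. WT-cM and T-cM mark the organoid groups by title; symbols stand for replicates 1, 2 and 3 and bars for group means. Thbs1 reaches 73.8, 76.3 and 435 CPM in tumoroids against 2.17 to 3.81 CPM in organoids, Lrp1 and Cd36 lie lower in each tumoroid library, and Thbs4 is at 0 in all 9.

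Thbs1 made up most thrombospondin reads in every library. Its share of the reads of all 5 genes was 78.0% to 93.5% in organoids and 95.1% to 99.5% in tumoroids. The lowest share, in T-cM replicate 2, rested on 41 reads and had a 95% Wilson interval of 63.3% to 88.0%. The highest, in tumoroid 3, rested on 12711 reads and had an interval of 99.4% to 99.6%. These intervals cover counting error only.

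Of the 3 receptors, Lrp1 was called lower in tumoroids, while Cd47 and Cd36 were not called. Cd47, present in nearly all cells, was expressed at 85.8, 83.3 and 82.7 CPM in T-cM organoids and at 81.0, 83.6 and 84.9 CPM in WT-cM organoids. In tumoroids it was at 108, 86.4 and 148 CPM. The organoid libraries were nearly level, and each tumoroid library lay above them, tumoroid 2 by little. The log2 fold change was 0.46 against WT-cM organoids (SE 0.18, 95% interval 0.05 to 0.86, adjusted p = 0.067, edgeR) and 0.44 against T-cM organoids (SE 0.18, adjusted p = 0.071). Cd47 was therefore not called in either comparison.

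Lrp1 fell in tumoroids. It was at 168, 232 and 214 CPM in T-cM organoids, at 163, 170 and 149 CPM in WT-cM organoids and at 37.4, 66.4 and 64.2 CPM in tumoroids. All tumoroid libraries lay below all organoid libraries, at 0.221 to 0.394 times the organoid median of 169 CPM. The log2 fold change was -1.52 against WT-cM organoids (SE 0.23, 95% interval -2.03 to -1.01, adjusted p = 0.00059, edgeR) and -1.87 against T-cM organoids (SE 0.23, adjusted p = 0.00018). The direction was therefore opposite to that of Thbs1, its ligand.

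Cd36 separated the tumoroids from each other. Organoids had 398, 212 and 313 reads of it in the T-cM libraries and 349, 418 and 495 in the WT-cM libraries. Tumoroids had 6, 250 and 0 reads. In CPM this was 14.4 to 21 and 19.2 to 25.4 in the organoid groups, and 0.272, 9.30 and 0 in tumoroids 1, 2 and 3. All 3 tumoroids lay below all organoids, yet tumoroid 2 held 0.462 times the organoid median and tumoroid 3 had no read, at a floor of 0.103 CPM. The log2 fold change was -2.79 against WT-cM organoids (SE 1.23, adjusted p = 0.096, edgeR) and -2.46 against T-cM organoids (SE 1.22, adjusted p = 0.13), so Cd36 was not called. Without tumoroid 2 it was -7.46 (adjusted p = 8.1e-05) and -7.14 (adjusted p = 9.8e-05). The test of limma voom called Cd36 with all libraries (-5.96, SE 1.35, adjusted p = 0.006, and -5.65, SE 1.37, adjusted p = 0.0082). The fitted values thus moved more than their SE, and the reason was not tested.

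Of the 5 tested members, 2 rose and 1 fell in tumoroids, and both comparisons gave Thbs1 and Thbs3 as higher and Lrp1 as lower. Among all tested genes, 18.2% were called higher and 11.6% lower against WT-cM organoids, and 19.4% and 11.8% against T-cM organoids. Thbs3 passed the filter through tumoroids alone, which favoured its being higher there. The median of all tested genes was shifted by 0.15 against WT-cM organoids and 0.16 against T-cM organoids on the log2 scale. With limma on log2(TPM + 1), which differs from the edgeR fit in scale, pseudocount and test together, this median was 0.52 and 0.51, and the share of calls in the higher direction went from 61.1% to 78.5% and from 62.1% to 78.4%. Relative to the median of all genes, Cd47 was 0.31 higher with counts and 0.41 higher with TPM against WT-cM organoids, and Lrp1 was at -1.67 and -1.48. On the TPM scale itself, Lrp1 was at -0.96 against WT-cM organoids and so missed the fold threshold, with an adjusted p of 0.0098 from limma.

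**Figure D2:**
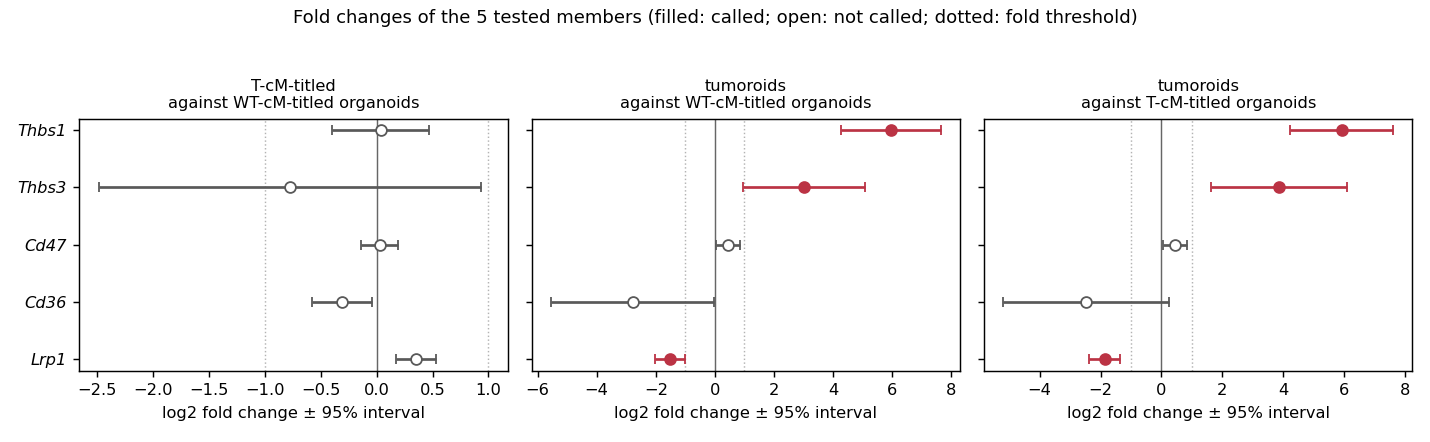
Fitted log2 fold changes of the 5 tested genes with 95% intervals in the 3 comparisons, with filled points for called genes and dotted lines at the fold threshold of 1; the horizontal scales differ. Thbs1 lies at 5.96 and 5.92 in the comparisons with tumoroids and at 0.04 between the organoid groups.

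Levels of ligand and receptors can be set beside each other only per length of transcript, for which the deposited TPM was used. In CPM, which is not corrected for length, Lrp1 lay above Cd47 in organoids. On the TPM scale Cd47 led in organoids at 36.8 to 41.9, followed by Lrp1 at 19.2 to 32.3, Cd36 at 9.86 to 17 and Thbs1 at 0.88 to 1.61. These ranges did not overlap, so the order held in all 6 organoid libraries. In tumoroids, Cd47 was at 67.1, 61.1 and 100 TPM, Thbs1 at 39.8, 46.9 and 256, Lrp1 at 6.91, 14 and 13, and Cd36 at 0.25, 9.66 and 0. Thbs1 thus lay above Lrp1 and Cd36 in all 3 tumoroids and above Cd47 in tumoroid 3.

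The ratio of Thbs1 to Cd47 TPM was 0.0227 to 0.0385 in organoids and 0.593, 0.768 and 2.56 in tumoroids. The ratio of Thbs1 to Lrp1 was 0.0273 to 0.0676 in organoids and 3.35 to 19.7 in tumoroids. The sum of the 3 receptors moved less, at 70.0 to 81.3 TPM in organoids and 74.3, 84.7 and 113 TPM in tumoroids. By rank of TPM among the 50600 genes, Thbs1 stood between 11528 and 12413 in organoids, at 4096 and 4020 in tumoroids 1 and 2, and at 592 in tumoroid 3.

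**Figure D3:**
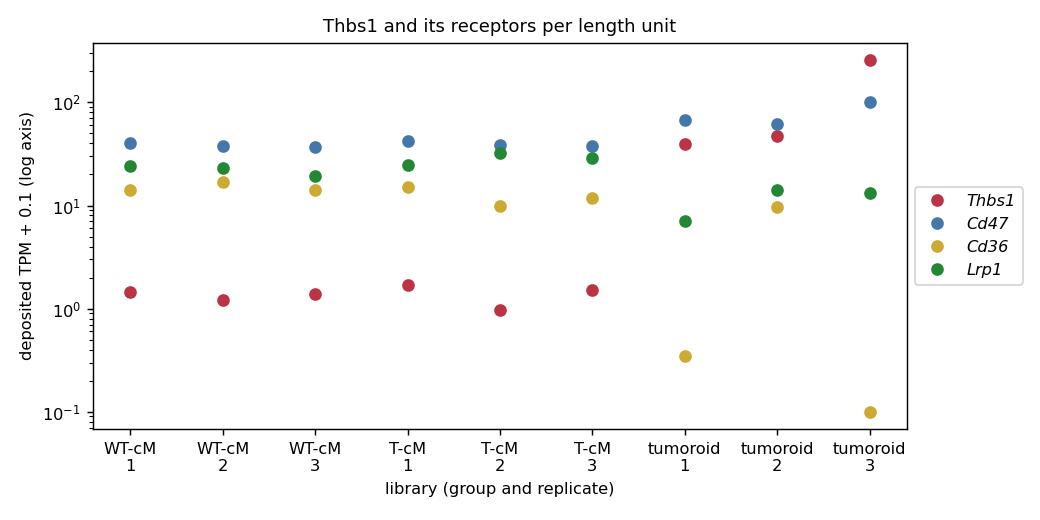
Deposited TPM plus 0.1 of Thbs1 and its receptors Cd47, Cd36 and Lrp1 in each library, on a log axis. Thbs1 is the lowest of the 4 genes in all 6 organoid libraries and the highest in tumoroid 3, at 256 TPM, while Cd36 ranges from 0 to 9.66 TPM among the tumoroids.

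The comparison of the organoid groups addresses whether these genes differed in normal epithelium between the conditioned media after 24 hr. According to the methods, WT-cM was made from medium with R-spondin, while tumoroids were kept without it, and conditioning times could differ. R-spondin supply and conditioning time therefore cannot be told apart from what tumoroids secrete. None of the 5 tested members was called, where 1.13% of 15797 tested genes were (edgeR, 6 libraries, replicate number as a block). The unadjusted p was under 0.05 for 2 of the 5, where this held for 22.6% of all tested genes, and the adjusted p was under 0.05 for 1, Lrp1, where this held for 10.5% of all tested genes.

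Thbs1 did not differ detectably between the organoid groups. Its log2 fold change, T-cM minus WT-cM by title, was 0.04 (SE 0.21, adjusted p = 0.95, edgeR), and the 95% interval of -0.40 to 0.47 corresponds to 0.759 to 1.38 times. Within pairs of the same replicate number the difference was 0.27, -0.35 and 0.06, so that it was higher in 2 of 3 pairs. Thbs3, with at most 13 reads per organoid library, was at -0.78 (SE 0.84, adjusted p = 0.66). Cd47 was at 0.03 with a narrow interval of -0.14 to 0.19 (adjusted p = 0.89).

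Lrp1 was higher in T-cM organoids in 3 of 3 pairs, by 0.04, 0.45 and 0.52 on the log2 scale. The fitted log2 fold change was 0.35 (SE 0.09, 95% interval 0.17 to 0.53, adjusted p = 0.0078, edgeR), which is 1.28-fold and under the fold threshold. The groups overlapped, since T-cM replicate 1, at 168 CPM, lay below WT-cM replicate 2, at 170 CPM. The fitted value was 0.50 without replicate 1 (adjusted p = 6.7e-07), 0.29 without replicate 2 (adjusted p = 0.53), 0.25 without replicate 3 (adjusted p = 0.20) and 0.36 without the replicate block (adjusted p = 0.85). With limma it was 0.35 on log2(TPM + 1) (adjusted p = 0.27) and 0.36 on log2(TPM + 0.1) (adjusted p = 0.26). The adjusted p of Lrp1 stayed under 0.05 in 8 of 13 alternatives. Cd36 was lower in T-cM organoids in 2 of 3 pairs, with differences of 0.13, -0.82 and -0.31 and a fitted value of -0.31 (SE 0.13, unadjusted p = 0.024, adjusted p = 0.14). It was -0.54 without replicate 1 (adjusted p = 0.00041), -0.09 without replicate 2 (adjusted p = 0.86) and -0.32 without replicate 3 (adjusted p = 0.37).

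**Figure D4:**
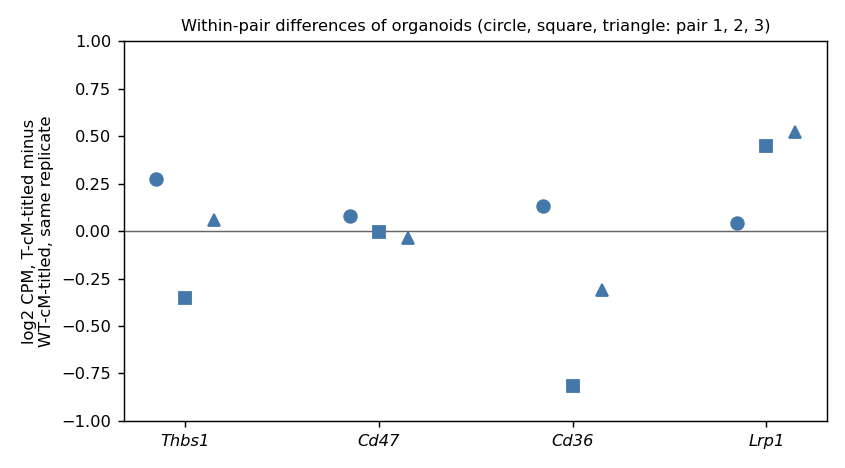
Difference in log2 CPM (prior count of 2 reads) between T-cM and WT-cM organoids of the same replicate number for Thbs1, Cd47, Cd36 and Lrp1, 1 point per pair. Lrp1 is above 0 in all 3 pairs, at 0.04, 0.45 and 0.52, and Thbs1 lies on both sides of 0.

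Related genes were followed in 7 lists of the wider thrombospondin pathway, with 65 genes in all, of which 45 passed the filter on TPM over the 9 libraries. Of these, 17 reached a TPM of 1 only in tumoroids, so the filter favoured a higher level in tumoroids, and none reached it only in organoids. None of the 44 tested between the organoid groups was called. In tumoroids against WT-cM organoids, 18 of the 45 were higher and 6 lower, and against T-cM organoids 19 were higher and 7 lower. The shares over all tested genes are those given above for the members.

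Of 4 tested integrin subunits, 1 rose against WT-cM organoids and none against T-cM organoids. Itgav, the alpha-v chain that binds the RGD letters of matrix proteins, was at 18.5, 38.5 and 69.4 CPM in tumoroids and 17.2 ± 2.68 CPM in WT-cM organoids (n = 3), a log2 difference of 1.29 (adjusted p = 0.023), and the difference from T-cM organoids was 1.03 (adjusted p = 0.052). The range of its tumoroid levels reached from that of organoids in tumoroid 1 to far above it in tumoroid 3. Itgb1, its partner, was at 0.66 (adjusted p = 0.022), below the fold threshold, and Itga3, a laminin-binding chain, at 0.04 (adjusted p = 0.89). Between the organoid groups the smallest adjusted p of the list was that of Itga3, at 0.11 (log2 fold change 0.19).

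Among 9 tested other receptors and partners, 2 rose and 1 fell against WT-cM organoids, and 3 rose and 2 fell against T-cM organoids. The heparan sulfate proteoglycans Sdc1 and Sdc4, which bind the heparin-binding domain of Thbs1, were both higher. Sdc1 was at 712 ± 330 CPM in tumoroids and 242 ± 15.3 CPM in WT-cM organoids, with a log2 fold change of 1.56 (adjusted p = 0.0021). Sdc4 was at 252 ± 37.2 and 89.3 ± 7.0 CPM, with 1.5 (adjusted p = 5.5e-05). Scarb1, a scavenger receptor of the Cd36 family that takes up lipid from lipoproteins, fell from 452 ± 136 to 63.0 ± 15.3 CPM, with -2.84 (adjusted p = 8e-05). Against T-cM organoids, Calr, the chaperone that also works as a co-receptor of Lrp1, was called lower at -1.10 (adjusted p = 0.0011), and Lrpap1, the chaperone of Lrp1 in the secretory pathway, higher at 1.17 (adjusted p = 0.0014). Against WT-cM organoids they were at -0.91 (adjusted p = 0.0030) and 0.99 (adjusted p = 0.0033), just under the fold threshold. Between the organoid groups, Stim1, a calcium sensor of the endoplasmic reticulum, was at 108 ± 26.7 CPM in the T-cM libraries and 72.0 ± 3.97 CPM in the WT-cM libraries (0.57, adjusted p = 0.00058), and Sdc1 was at -0.26 (adjusted p = 0.029), both under the fold threshold.

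Of 7 tested genes with thrombospondin type 1 repeats, 2 rose against WT-cM organoids and 3 against T-cM organoids, and none fell. Of the 7, 5 passed the filter only through tumoroids, among them Thsd4, Adamts1, Thsd1 and Spon2. Thsd4, a matrix protein of microfibrils, was at 27.4, 36.0 and 16.1 CPM in tumoroids and at most 5.31 CPM in organoids, a log2 difference of 2.91 from WT-cM organoids (adjusted p = 0.0011). Adamts1, a secreted protease, was called at 3.18 (adjusted p = 0.041) but was at 0.544, 0.483 and 7.28 CPM in tumoroids 1, 2 and 3, so that tumoroid 3 carried its mean. Thsd1 was not called (1.66, adjusted p = 0.091), and Spon2, with at most 0.893 CPM, was called against T-cM organoids and not against WT-cM organoids (adjusted p = 0.21). Between the organoid groups, the axon guidance gene Sema5a was at 6.74 ± 3.87 CPM in the T-cM libraries and 12.6 ± 7.33 CPM in the WT-cM libraries (-0.89, adjusted p = 0.00014), and Thsd4 was at -0.77 (adjusted p = 0.028), both under the fold threshold. The R-spondin genes Rspo1 and Rspo2 had no reads in any library.

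Genes of the latent TGF-beta complex, which Thbs1 can activate, were called higher in tumoroids for 6 of 7 tested members in both comparisons, and none was lower. However, 6 of the 7, all but Tgfb1, passed the filter only through tumoroids, so the count and direction of the list were in part set by the filter. Tgfb3, a TGF-beta ligand, had no read in any organoid library and was at 21.1, 23.2 and 63.6 CPM in tumoroids, at least 225-fold higher than the 3-read floor per library of WT-cM organoids. Ltbp3 and Ltbp4, proteins that hold latent TGF-beta in the matrix, were at 22.0 ± 9.87 and 38.6 ± 35.8 CPM in tumoroids and at 0.0900 ± 0.0654 and 0.180 ± 0.131 CPM in WT-cM organoids (adjusted p = 1.1e-05 and 0.00027). Ltbp4 was at 79.2 CPM in tumoroid 3 and at 24.9 and 11.6 CPM in tumoroids 1 and 2, and Ltbp1 was at 20.8 CPM in tumoroid 3 and 1.13 and 0.706 CPM in the others. Tumoroid 3, the highest in Thbs1, was therefore also the highest in Tgfb3, Ltbp4 and Ltbp1. Tgfb1 rose as well, with a log2 fold change of 2.76 (adjusted p = 0.00048).

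Of 5 tested proteases and inhibitors that Lrp1 clears, 4 rose in tumoroids in both comparisons and none fell. Timp3, a metalloprotease inhibitor, was at 236, 919 and 269 CPM in tumoroids and 8.85 ± 2.35 CPM in WT-cM organoids, which is a log2 difference of 5.74 (adjusted p = 6.6e-05). The plasminogen activators Plat and Plau were at 19.8, 201 and 81.1 CPM and at 7.16, 2.23 and 50.8 CPM in tumoroids, and were called with adjusted p of 0.0021 and 0.0011. Tumoroid 2 was the highest in Timp3 and Plat, and tumoroid 3 in Plau. Plau passed the filter on TPM only through tumoroids. Plaur, the receptor of urokinase, had an adjusted p of 1.4e-05 between the organoid groups, higher in the T-cM libraries at 28.8 ± 4.12 CPM against 17.1 ± 0.898 CPM (log2 fold change 0.76, under the fold threshold).

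Of 5 tested other matricellular proteins, 3 rose and 1 fell in both comparisons, and 2 of those that rose, Spp1 and Tnc, passed the filter only through tumoroids. Spp1 (osteopontin) was at 529, 1573 and 1504 CPM in tumoroids and at most 0.339 CPM in organoids (adjusted p = 9.1e-06 against WT-cM organoids). Tnc was called higher (adjusted p = 0.017), at 0.453, 0.781 and 11 CPM in tumoroids, with tumoroid 3 again the highest. Fbln1, a secreted glycoprotein of matrix fibres, fell from 143 ± 15.8 to 35.8 ± 24.1 CPM (log2 fold change -2.0, adjusted p = 0.012). Smoc2, a calcium-binding matrix protein, rose in tumoroids by 1.52 (adjusted p = 0.037) and was at -0.61 between the organoid groups (adjusted p = 4.3e-05), where Fbln1 was at 0.39 (adjusted p = 0.0040), both under the fold threshold.

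Of 8 tested genes of fatty acid uptake beside Cd36, 4 fell and none rose in both comparisons. Fabp1 and Fabp2, the cytosolic fatty acid binding proteins of enterocytes, were at 3.13, 6.25 and 1.31 CPM and at 6.44, 2.83 and 3.88 CPM in tumoroids, against 6753 ± 3434 and 2264 ± 560 CPM in WT-cM organoids (adjusted p = 1.3e-05 and 2.1e-06). Slc27a4, a fatty acid transport protein, fell from 416 ± 70.4 to 55.3 ± 7.25 CPM (adjusted p = 1.1e-05). Tumoroid 2, which kept Cd36 at 9.30 CPM, was not near the organoids in any of these 3 genes. Between the organoid groups, Fabp1 was at -0.61 (adjusted p = 0.00014) and Fabp2 at -0.56 (adjusted p = 0.00032), with Ppargc1a, a coactivator of mitochondrial genes, at -0.37 (adjusted p = 0.028), all under the fold threshold. In replicate 1 the T-cM and WT-cM libraries were level, at 3152 and 3140 CPM for Fabp1 and 1624 and 1618 CPM for Fabp2. The lower values of these 2 genes thus came from replicates 2 and 3.

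**Figure D5:**
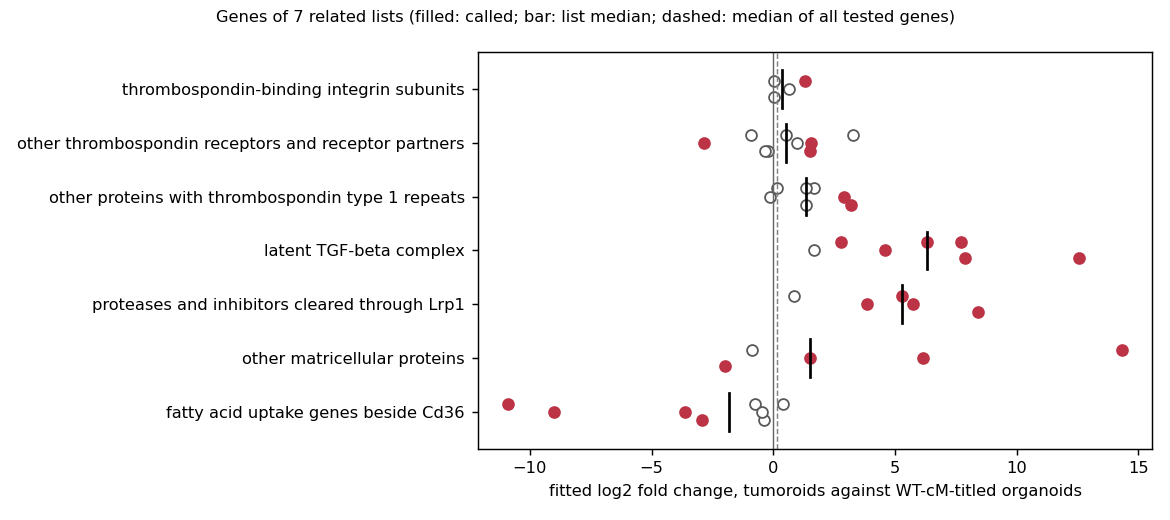
Fitted log2 fold changes, tumoroids against WT-cM organoids, of the 45 tested genes of 7 lists, with filled points for called genes, bars for list medians and a dashed line for the median of all tested genes at 0.15. The latent TGF-beta list, of which 6 of 7 genes passed the filter only through tumoroids, has its median at 6.31 and the fatty acid uptake list at -1.82.

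The genes whose levels followed Thbs1 most closely over the 9 libraries were Palmd, Ctla2a, Trpv6, Ackr3 and 2900041M22Rik, with Pearson r of 0.996 to 0.997 on log2 CPM. All 5 were at 0 in every organoid library. Palmd had the highest level of them, at 6.39, 6.40 and 42.4 CPM in tumoroids 1, 2 and 3, a spacing like that of Thbs1. Among the genes most like Cd36 were Camk1d, Enpep, Abcc2 and Ereg, with r of 0.982 to 0.988. Enpep, a brush border peptidase, was at 676 to 1164 CPM in organoids and at 9.83, 199 and 1.55 CPM in tumoroids. These correlations are descriptions over 9 libraries that fall into organoids and tumoroids, and they carry no test.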

How the data were processed

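mRNA was poly(A)-selected and sequenced in paired-end, strand-keeping libraries from 9 mouse samples. Per the submitters' processing notes, reads were aligned to mm10 with STAR. The authors deposited raw, unnormalised counts of reads for each gene, and TPM, in which gene length was divided out and libraries were brought to a common total. The counting tool, its strand setting and the gene lengths are not given in the sources used here.

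Groups and replicate numbers were taken from the titles. Counts were analysed in R 4.3.3 with edgeR 4.0.16 (TMM factors, quasi-likelihood test in its form before edgeR 4). The tested genes had a TPM of 1 or more in 1 library or more, 16208 over 9 libraries for the comparisons with tumoroids and 15797 with reads in the 6 organoid libraries. The organoid comparison had the replicate number as a block, following the sample effect in the methods of the study. Same-numbered organoid libraries deviated together (r = 0.546, 0.338 and 0.547 over genes). Tumoroid numbers did not pair with them (r = -0.07 to 0.20). Genes were called at a Benjamini-Hochberg adjusted p (over all genes tested) under 0.05, together with an absolute log2 fold change above 1. Each group had 3 mice. In the organoid comparison, p-values measure the spread of the differences within pairs of the same replicate number. In the comparisons with tumoroids they measure the spread within groups over all 9 libraries. There, same-numbered organoid libraries were taken as independent. Levels are CPM on TMM library sizes. Alternatives used limma 3.58.1 (voom on counts, and its trend method on log2 TPM with pseudocounts of 1 and 0.1) and DESeq2 1.42.0. The script was tested on simulated data with planted changes.

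Gene positions came from Gencode mouse release 21 (GRCm38), matched by identifier, with a different version number for Thbs2 and Cd47. By the rule for names, the text may name all 8 members, in each list and comparison the 3 genes of smallest p (not all are printed), markers, and the 5 genes most like Thbs1 and Cd36, of which 1 is not reported here. Ltbp1, Tgfb1, Calr, Lrpap1, Plaur, Smoc2, Rspo1, Rspo2, Gm29233 and Mtx1 were named in addition, in part after their values were seen. The members and lists were chosen with earlier results of these data known. Protein sequences were not used here.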

Additional observations from a re-analysis of the deposited data

How the results depend on the processing

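The call of Thbs1 in tumoroids held in 16 of 16 alternatives in both comparisons, with log2 fold changes of 4.57 to 6.34 against WT-cM and 4.53 to 6.31 against T-cM organoids. With the replicate block these were 5.57 and 5.54, and Cd36 was then called in the former (-3.75, adjusted p = 0.047). With log2(TPM + 1) and log2(TPM + 0.1), limma called Cd36 in both comparisons (-2.75 and -4.43, then -2.46 and -4.12).

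Between the organoid groups Thbs1 ranged from -0.10 to 0.17 when each replicate was left out, and was negative without replicates 1 (-0.10) and 3 (-0.002). Cd47 ranged from -0.0099 (without replicate 1) to 0.0427. Both stayed within their standard errors of 0. With the adjusted p alone, 1 member was called. Without the replicate block Thbs1 was 0.05 and no member was called, as in the fit with it. Calls over all genes in this comparison numbered 179, against 93 with DESeq2, 388, 1 and 94 without replicates 1, 2 and 3, and 1655 with the adjusted p alone. Without the block edgeR called 0 (904 at an unadjusted p under 0.05), and limma on log2 TPM called 0 with either pseudocount (2834 and 2849). Depth limits Thbs2, Thbs3, Thbs4 and Comp, whose organoid levels rest on 0 to 13 reads. The causes of these changes were not tested.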
